A study of Arabidopsis thaliana with 10 samples.

Results

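White light values that accompany the move of plants from photosystem II light (PSII light) to photosystem I light (PSI light) make up 1 of 10 columns of leaf transcript ratios in Arabidopsis thaliana Col-0. The column was chosen by its sample label, PSII_vs_PSI_WL, and its genes were taken from the spots paired with exactly 1 gene, which gave 644 genes among 3261 features. Of these genes, 622 had a ratio above 0 and 22 were listed at 0, which can be a failed estimate and was treated as no value. Values are log2 ratios from which the median of the column was subtracted, so 0 is the typical feature and 1 is 2 times that level.

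The leaves came from pools of at least 250 to 500 plants grown on soil for 21 days in white light on short days, lit for 8 h and dark for 16 h. For the other columns plants were acclimated to light that favours 1 photosystem for 3 days and moved to the opposite light for 30 min, 2 h, 8 h or 48 h, with reference samples taken before the move. The plants described here served as a control acclimated to white light. Another white light column accompanies the reverse move, from PSI light to PSII light. The labels speak of 3 experiments per time point, but each condition has 1 deposited column. The source names of all samples speak of thylakoid membranes, whereas the protocols describe total RNA from leaf material. Of leaf genes, those for photosystem and light-harvesting proteins had ratios in this column, but a ratio holds no level by which to check the tissue.

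Light that excites the photosystems unequally changes the redox state of the plastoquinone pool and of the carriers after it, and chloroplasts pass this signal on to genes in the plastid and in the nucleus. Electrons also reach ferredoxin and thioredoxins, which switch Calvin-Benson cycle enzymes and the export of reducing power on and off. White light excites both photosystems, and plants kept in it serve as a reference state between the unbalanced lights.

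The ratio was read as white light plants over a reference. That direction is likely from the sample descriptions, which speak of expression in relation to a reference, but the labels do not state it. Whether the reference was the plants in PSII light before the shift is not stated either. If the ratio runs the other way, each value below changes sign. With 1 column and no replicate, no value has an error, and no difference could be tested. Fewer cells of a type and less RNA per cell cannot be told apart in whole leaves.

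Most genes lay near the column median. Of the 622 genes, 298 were within 0.25 log2 units of it, 493 within 0.5 and 594 within 0.75. At 2-fold or more, 8 genes were higher, which is 1.29% of the genes measured, and no gene was lower. Over all 3146 features with a value the shares were 1.88% higher, which is 59 features, and 0.509% lower, which is 16. Without subtraction of the column median, which was 0.889 as a ratio, 36 features were higher and 39 lower. The higher share among features past 2-fold was thus 78.7% relative to the median, 48.0% as deposited and 63.9% after quantile normalization. If the ratio runs the other way, these shares are 21.3%, 52.0% and 36.1%. The prevailing direction rests on where the centre is placed.

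The spread was among the narrowest of the series. The standard deviation over features was 0.407 log2 units here, against 0.377 at 2 h in PSI light, the narrowest, and 0.786 at 48 h in PSII light, the widest. The quartiles were −0.24 and 0.25. The lowest feature was at −1.73 and the highest at 2.28, and neither is paired with a single gene. The other white light column had a standard deviation of 0.720, with 256 features higher and 166 lower. Of 551 genes with values in all 10 columns, 34 were farthest from the median here. Other columns ran from 11, at 8 h in PSII light and at 2 h in PSI light, to 134 at 48 h in PSII light. In the other white light column it was 100 genes. Among the 590 genes with values in all 5 columns of the shift to PSI light, white light was the highest for 95 and the lowest for 90. Over all 2981 such features it was the highest for 426 and the lowest for 459, so the counts are no result about the genes.

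The white light columns may rest on the same white light plants, each set against its own reference, so their values are only placed side by side. Of 597 genes with a value in both, 72 were past 2-fold in the other column, 44 higher and 28 lower. Of these 72 genes, 55 lay within 0.5 log2 units of the median here. Over all genes with a value here, 493 of 622 (79.3%) did so, so the 55 are no result about these genes. AT2G36480, among the lowest here with −0.75, had 1.06 there.

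**Figure D1:**
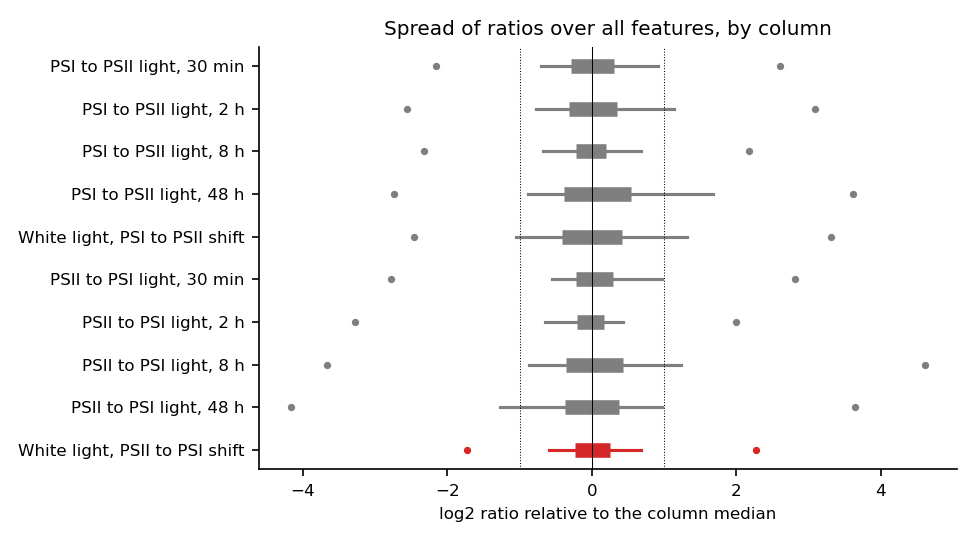
Spread of the centred log2 ratios over all features in each of the 10 columns. Thick bars run from the lower to the upper quartile, thin lines run from the 5th to the 95th percentile, points mark the lowest and highest feature, and dotted lines mark 2-fold; the red column, white light as described here, has a 5th percentile of −0.60 and a 95th of 0.68.

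AT2G04540 was the highest gene, at 2.31 times the column median, and AT1G49850 followed at 2.21 times. CBL came next at 2.17 times; it encodes cystathionine beta-lyase, which makes homocysteine on the way to methionine. The other 5 genes past 2-fold were AT3G52550, AT2G26340, AT4G16410, AT1G01730 and AT1G17160, from 2.15 down to 2.04 times the median. Just inside the limit of 2-fold were AT1G01730 with 1.04 and AT1G17160 with 1.03, and just outside were AT3G22690 and AT4G13550, both with 0.94. As deposited only AT2G04540 was past 2-fold, with a log2 ratio of 1.04, and the other 7 lay between 0.86 and 0.98.

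Among the remaining genes of the 15 highest, AT4G22490 had 0.93, AT2G34050 0.91, AT4G00170 0.86 and AT3G53580 0.84. FBL17, an F-box protein that takes part in the control of the cell cycle, had 0.85. FBL17 lay at −0.71, −0.22, 0.20 and −0.91 across the 4 times in PSI light. It was named for its high value here, so lower values elsewhere partly follow from that choice.

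AT5G06930 and AT3G15490 were the lowest genes, at 0.515 and 0.519 times the column median, which is just short of 2-fold. AT1G01250 and AT4G16490 followed with log2 values of −0.85 and −0.84. As deposited these 4 genes were past 2-fold, with −1.13, −1.12, −1.02 and −1.01. CKS, with −0.80, encodes CMP-KDO synthetase, which activates the sugar KDO for pectin. CKS was listed at 0 in all 5 columns of the shift to PSII light and had −0.20, 0.31, −0.03 and −0.65 across the 4 times in PSI light. UGT74D1, a UDP-glucosyl transferase, had −0.73. The other 9 of the 15 lowest were AT5G52660, AT4G08630, AT5G62840, AT2G36480, AT5G44150, AT5G48110, AT3G59300, AT1G77730 and AT4G38670, between −0.80 and −0.72.

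**Figure D2:**
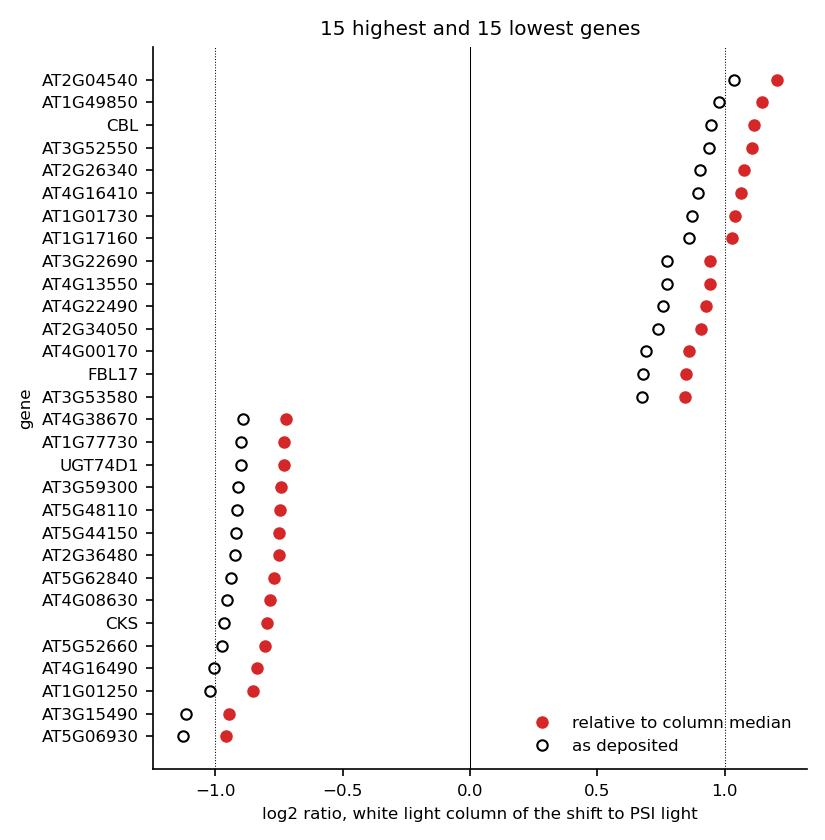
The 15 highest and 15 lowest genes of the white light column described here. Filled points give the log2 ratio relative to the column median and open points the value as deposited, which is 0.17 lower for each gene; dotted lines mark 2-fold, which 8 genes pass upward when centred and 4 pass downward as deposited.

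The 8 highest genes had different histories in the other columns, which may share a reference or the white light plants with this one. They were picked for high values here, so lower values elsewhere partly follow from that choice. AT2G04540 had −0.34, −0.36, 0.44 and −0.62 across the 4 times in PSI light. AT2G04540 was above the median in every column of the opposite shift, with 0.81, 0.97, 0.60 and 0.97 at the time points and 0.87 in white light. AT1G49850 had −0.71 and −0.44 at 30 min and 2 h in PSI light, was listed at 0 at 8 h and had −0.98 at 48 h. In the opposite shift it lay between 0.41 and 1.43. For both genes white light and PSII light were thus on one side of the median and the valued times in PSI light, except 8 h for AT2G04540, on the other.

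CBL was listed at 0 at 8 h in PSI light, at 2 h in PSII light and in the other white light column. Its remaining values for PSI light were 0.88 at 30 min, −0.25 at 2 h and 0.63 at 48 h. At 30 min, 8 h and 48 h in PSII light it had 0.12, −0.70 and −0.77.

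AT4G16410 was more than 2-fold above the median in both white light columns, with 1.06 here and 2.63 in the other. It was also above the median across the 4 times in PSII light, with 1.32, 1.52, 0.86 and 2.14. At 8 h in PSI light it had 1.32, and at 30 min, 2 h and 48 h it had −0.37, −0.59 and −0.39. AT1G01730 had 1.04 here and 1.08 at 8 h in PSI light, was listed at 0 at 2 h, and had 0.05 in the other white light column.

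AT3G52550 had 1.11 here and −0.33 in the other white light column. It had −0.94 at 30 min and 0.56 at 48 h in PSI light, and −2.73 at 48 h in PSII light. AT1G17160 had −0.57, −0.35, 0.41 and −1.14 across the 4 times in PSI light and −0.08 in the other white light column. AT2G26340 was the most variable of the 8, with −0.61, 1.91 and −2.30 at 30 min, 2 h and 8 h in PSI light. In the other white light column it had −1.46, and at 48 h in PSI light it was listed at 0.

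**Figure D3:**
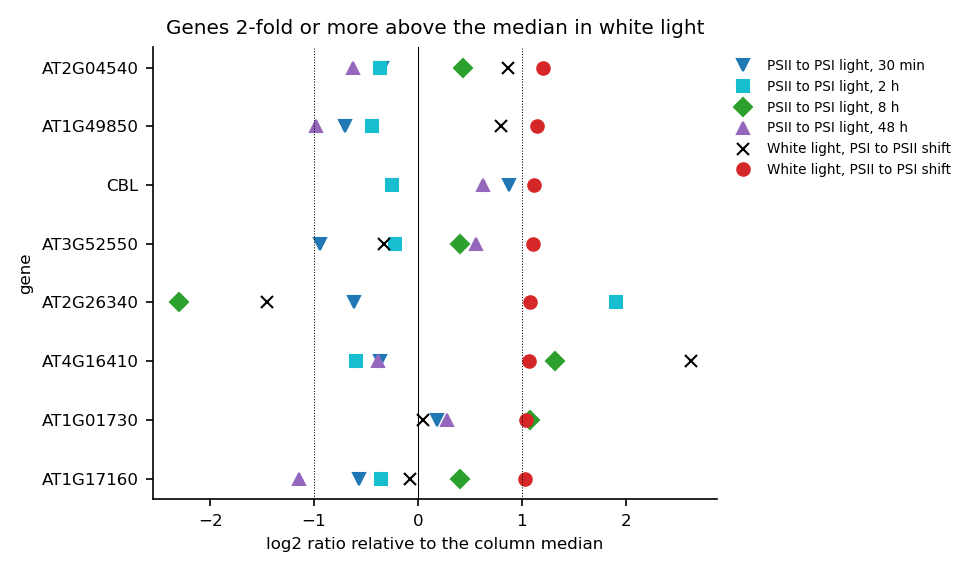
The 8 genes 2-fold or more above the median in the white light column described here (red circles), with their values at the 4 times in PSI light and in the other white light column (crosses). The axis is the log2 ratio relative to the median of each column; the red circles lie between 1.03 and 1.21, the crosses between −1.46 and 2.63, and a value listed at 0 has no symbol.

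Of the 622 genes with a value, 86 carry a symbol in the gene table used for names, and their median was 0.02. Of these, 68 lay within 0.5 log2 units of the column median, 10 were 0.5 or more above it and 8 were 0.5 or more below. Over all 622 genes, 493 (79.3%) lay within, 73 above and 56 below, so the counts are no result about genes with a symbol. Of the 86 only CBL passed 2-fold, against 8 (1.29%) of the 622. Genes with a symbol above by 0.5 or more included FBL17, LpxA with 0.74, NTRC, PRK and APS4. Others were IYO with 0.55, PSBY, AGL54 with 0.51 and Cpn60beta3. LpxA is the plant relative of a bacterial enzyme of lipid A synthesis. Below by 0.5 or more were CKS, UGT74D1, SRX, SAP with −0.66, GLX2-1 with −0.63, iqd32, RAP74 with −0.51 and ETFQO. SAP is the floral regulator STERILE APETALA, GLX2-1 is a glyoxalase II of methylglyoxal breakdown, and ETFQO passes electrons from mitochondrial flavoproteins to ubiquinone, with −0.50.

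In the lists that follow few genes were measured, and with 1.88% of all features 2-fold or more higher and 0.509% lower, a count of 0 in a short list is no result about it. Of 5 photosystem and light-harvesting genes, 3 were above the column median and 2 below, and 0 were past 2-fold. PSBY, a small subunit of photosystem II, was highest with 0.53, and it had 1.09 at 30 min and −0.74 at 48 h in PSI light. PSAN, a photosystem I subunit, had 0.12 and PSBW, a photosystem II subunit, had 0.10, and at 48 h in PSI light they had −1.31 and −2.96. LHB1B2, a light-harvesting protein of photosystem II, had −0.22 here and −3.44 at 48 h in PSI light. PSB27, which helps to assemble and repair photosystem II, had −0.42 here and 1.23 at 48 h in PSI light. Its relative LPA19, which acts in the maturation of a reaction centre protein, had 0.37. For all 5 photosystem and light-harvesting genes the white light value was nearer to the median than that of 48 h. Over all features the 48 h column was wider, with a standard deviation of 0.713 against 0.407 here, so this is no result about these genes.

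Genes of the NDH complex, which returns electrons to plastoquinone, had 5 measured members, from −0.26 for CRR21 to 0.13 for CRR41. The subunits NdhN and NdhS had −0.11 and −0.13, and PIFI, which acts with the complex, had −0.14. NdhS had 1.51 in the other white light column. CRR21 is an editing factor for a plastid transcript of the complex.

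NTRC and 3 genes of enzymes that thioredoxins regulate were put together after their values were seen, so their common side of the median is a description of that choice. AT5G58330, annotated as NADP-dependent malate dehydrogenase, which exports reducing power from the chloroplast, had 0.70. PRK, the phosphoribulokinase of the Calvin-Benson cycle, had 0.60, and SBPASE, the sedoheptulose-bisphosphatase of that cycle, had 0.32. NTRC, a chloroplast thioredoxin reductase joined to a thioredoxin, had 0.64. Across the 4 times in PSI light, SBPASE had −1.79, −0.27, −1.55 and 1.18, whereas PRK stayed between −0.07 and 0.48. NTRC had 2.25 in the other white light column, PRK 0.03 and SBPASE −0.79.

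In the list of thioredoxins and peroxide defence, which holds NTRC too, 3 genes were above the median and 2 below. SRX, sulfiredoxin, which restores overoxidised peroxiredoxins, had −0.67, and CCS, the copper chaperone of superoxide dismutase, had 0.30. AT3G52960 and AT2G04700, other members of the list, had −0.62 and 0.52. SRX had −0.95 in the other white light column and CCS had −1.36.

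Tetrapyrrole enzymes lay on both sides of the median, in a set drawn up after the values were seen. HEMA3, a glutamyl-tRNA reductase at the start of the pathway, had 0.45, and SIRB, the ferrochelatase of the sirohaem branch, had 0.39. CHLM, the methyltransferase of the chlorophyll branch, had −0.49 and was between 0.16 and 0.26 at all 4 times in PSI light. In the other white light column CHLM had −0.77, and across the 4 times in PSII light it lay between −0.50 and −0.22. Z-ISO, an isomerase of carotenoid synthesis, had −0.24, and AT1G74470 had 0.26.

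The list of amino acid and sulphur metabolism had 4 measured genes, of which CBL alone was past 2-fold and SRX was lowest with −0.67. Only 1 code was listed for it, so most members came by keyword. Besides CBL and sulfiredoxin these were the glutamate receptor gene GLR2.7 and SIS, annotated as salt induced serine rich, so the list does not stand for that metabolism. Around CBL, 3 genes of sulphur assimilation and methionine synthesis were put together after their values were seen. CBL was at 1.12, APS4, an ATP sulfurylase that activates sulphate, at 0.56, and SIRB, whose product sirohaem is the cofactor of sulphite reductase, at 0.39. APS4 had 0.34, −0.10, −0.01 and 0.81 across the 4 times in PSI light.

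Genes of organelle RNA processing and translation lay between −0.40 and 0.13. PAC, needed for plastid RNA processing and early chloroplast development, had −0.08, and ATAB2, a translation factor for photosystem proteins, had −0.40. The editing or splicing factors OTP85 and OTP70 had 0.16 and −0.13, and AT5G55580 had 0.13. The 3 listed ribosomal protein genes AT3G54210, AT1G29070 and AT1G64510 had 0.15, −0.04 and −0.10. The chaperonin subunits Cpn60beta3 and Cpn60beta4, which fold chloroplast proteins, had 0.50 and −0.36.

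**Figure D4:**
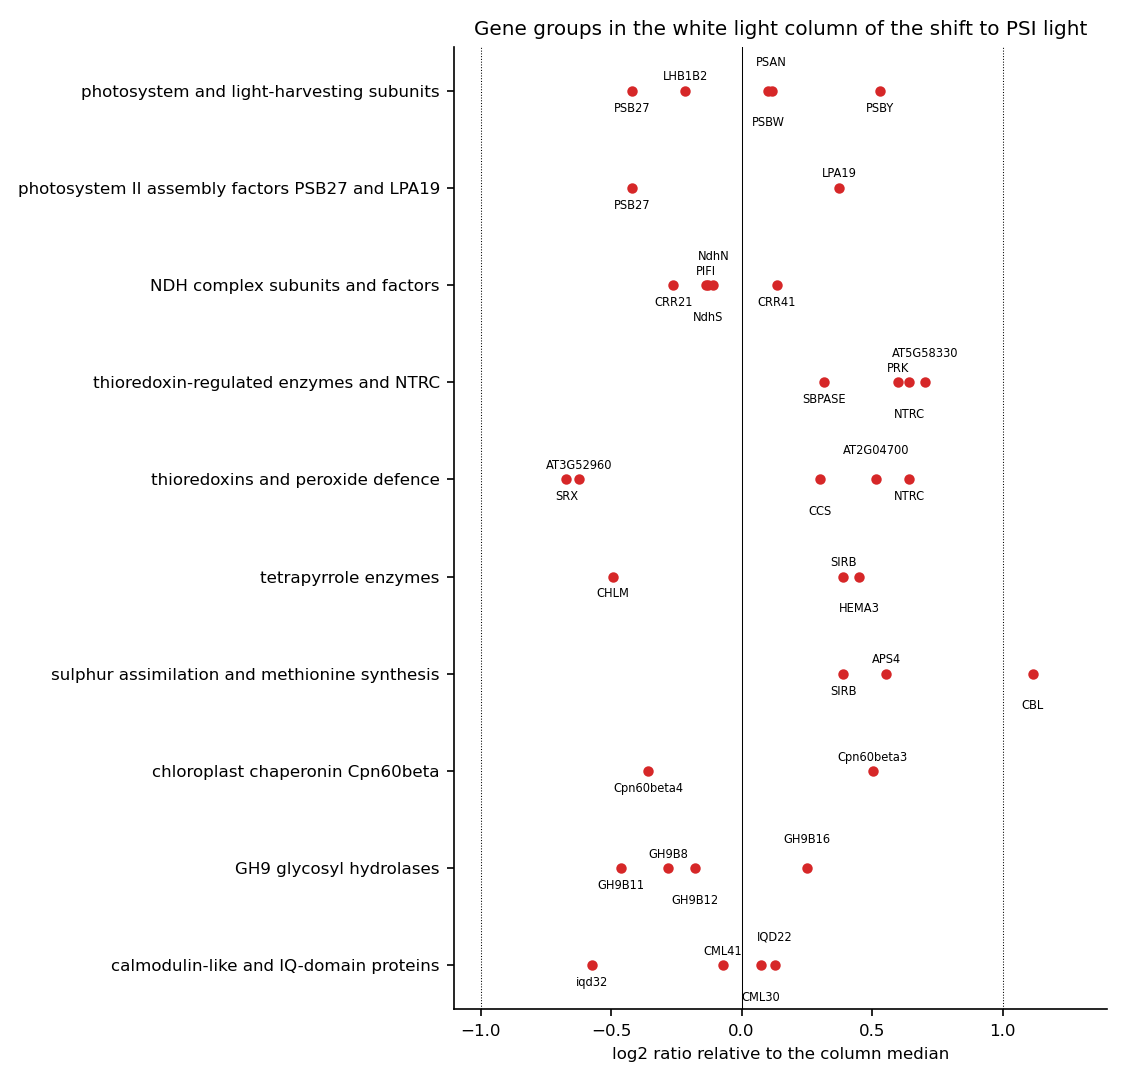
Members of 10 gene groups in the white light column described here, each point 1 gene, as the log2 ratio relative to the column median. Dotted lines mark 2-fold, and only CBL at 1.12 lies beyond them; the NDH genes span −0.26 to 0.13.

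The GH9 and calcium-related sets were also drawn up after the values were seen. Of 4 measured cell wall hydrolases of family GH9, 3 were below the median. They were GH9B11 with −0.46, GH9B8 with −0.28 and GH9B12 with −0.18, and GH9B16 had 0.25. Of the calcium-related genes, CML30, CML41 and IQD22 lay between −0.07 and 0.13, and iqd32 had −0.57. The drought and abscisic acid genes were near the median here, with 0.26 for XERICO and −0.21 for DI21. In the other white light column the same genes had 1.92 and 2.28. NDX, annotated as nodulin homeobox under AT4G03090, had 0.78, and TPP2, a large peptidase, had 0.34. The signal peptide peptidase SPPA had −0.16, PPDK −0.08, the glutamate receptor gene GLR2.7 0.28, and GLDH, of ascorbate synthesis, 0.05.

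A list of photoreceptor and light signalling genes had no member on a spot paired with a single gene. Of the 22 gene lists, 4 had no member with a value.

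The gene AT2G25870 had 2 spots, the only repeat within a column. They gave −0.20 and 0.06 here, a difference of 0.27 log2 units, and over the 10 columns the median difference was 0.58 and the largest 1.26.

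Listed at 0 here but with a ratio in 8 of the other columns were FATB, AT1G18060, AT2G41120 and AT4G31930. FATB, a thioesterase that releases fatty acids in the chloroplast, had 0.74, 0.28 and 1.00 at 30 min, 2 h and 8 h in PSI light, and at 48 h it was listed at 0. AT4G31930 had −2.05 in the other white light column, and at 48 h in PSI light it too was listed at 0.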

How the data were processed

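Each deposited value is a linear ratio for 1 spot, in relation to a reference per the labels, from nylon filters of 3292 tags hybridised with 33P-labelled cDNA. For background correction, scaling and the combining of 3 experiments per time point, no method was given in the sources used here. Signals are not given, so signal over background is unknown and 1 column limits the precision.

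Ratios of 0 were set to missing, log2 was taken, spots of 1 gene were averaged and the column median was subtracted (Python 3.11.15, pandas 2.3.3). Of 3262 spots, 645 had 1 gene, 829 several and 1788 none, from the old platform annotation, with names updated through the TAIR10.1 gene table, which held 643 of the 645. No coordinates or sequences are given. Counts use 2-fold. The steps were tested on simulated data.

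Named were genes past 2-fold, the 15 highest and 15 lowest, up to 4 members of each list with the largest values and all listed codes, and genes at 0 here with values in at least 8 other columns. Genes with a symbol at 0.5 or more from the median, and SIRB, HEMA3, LPA19, the GH9, CML and IQD genes, were named after their values were seen. Members and lists were chosen with earlier results of these data known, and 8 lists were added later. Keywords also matched by chance of letters, such as THIC and the PRA1 genes, which are not described. One of the added lists is not reported here. Planned motif counts in promoters were not made, since no promoter sequence was used here.

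Alternatives were no centring, quantile normalization, 1.5-fold and 3-fold, single spots, a pseudocount of 0.432 (5th percentile of positive ratios), features with values in all 10 columns, and centring on single-gene features.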

Additional observations from a re-analysis of the deposited data

Results flagged for a closer look

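AT2G26340 stood on opposite sides of the median in the white light columns, with 1.07 in the shift to PSI light and −1.46 in the shift to PSII light, both past 2-fold. The difference was not tested, since each column is 1 value. No other gene of the 597 with values in both columns was past 2-fold in opposite directions. Groups of 1 sample could not be examined for outlying samples.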

How the results depend on the processing

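With 59 features higher and 16 lower, and 8 genes higher and 0 lower, at 2-fold relative to the column median, these counts changed as follows. As deposited they were 36 and 39 features, and 1 and 4 genes. Quantile normalization gives this narrow column the mean distribution of all 10 columns, which widens it. After that step the counts were 159 and 90 features, and 28 and 16 genes. At 1.5-fold they were 240 and 167 features, and 47 and 35 genes. At 3-fold they were 10 and 1 features, and 0 genes either way. With a pseudocount they were 21 and 115 features, and 0 and 22 genes, and all 115 lower features were those listed at 0. Among features with values in all 10 columns they were 39 and 9 features, and 4 and 0 genes, because fewer features were counted. Single spots and centring on single-gene features left each count within 1.5 times.

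None of the 8 genes past 2-fold changed sign where it had a value, and only 4 of them had values in all 10 columns. Still past 2-fold were 1 of the 8 as deposited, 8 after quantile normalization and 0 with the pseudocount. A filter on low levels was not run, since ratios hold no levels, and no replicate could be left out, with 1 column per condition. No paired analysis was possible because each condition has a single column.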

Other observations

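Ratios of 0 were shared between this column and 48 h of PSI light more than with any other column. Of the 115 features listed at 0 here, 86 were also at 0 at 48 h of PSI light, which is 74.8% of those here and 87.8% of the 98 there. For the other 8 columns the shared part was 46.1% to 67.0% of the features at 0 here, and 34 features were at 0 in all 10 columns. Only 4 features were at 0 in this column alone. The columns of a shift may share a reference, and the part of that in the shared zeros was not tested.

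CKS, AT5G19210 and AT5G56070 had a ratio here and were listed at 0 in all 5 columns of the shift to PSII light.

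Features paired with several genes or with none held the most distant values of the column. Of 799 valued spots with several genes, 18 (2.25%) were 2-fold or more higher and 4 (0.50%) lower. Of 1725 with none, 33 (1.91%) were higher and 12 (0.70%) lower. Over all features the shares were 1.88% and 0.509%, so these counts are no result about the kind of spot. Both kinds outnumber the 622 single genes with a value, and a larger set more readily holds the most distant values. The highest log2 value was 2.28, or 4.86 times the median, on a spot with no gene, against 2.31 times for a single gene.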
